A study of Mus musculus with 35 samples.

Results

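Neutrophil identity and granule genes were followed across the lungs of mechanically ventilated mice. The set was a list of 35 gene symbols for granule proteins, surface receptors, oxidase subunits and other products of mouse neutrophils. A symbol was taken where a probe set carried it as its only gene symbol. A gene with several such probe sets was to be read from the one of highest average signal. By this rule 33 of the 35 genes were measured, of 19938 genes in all, each by 1 probe set; Fpr1 and Fpr2, formyl peptide receptors, were not analysed here. The values are log2 signals, so a difference of 1 is a doubling, and levels are not compared between genes because each probe set has its own brightness.

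The study measured lung RNA on 35 Affymetrix arrays, 1 per adult male C57BL/6J mouse of 20 to 25 g, an inbred strain, on a normal diet. The non-ventilated group (5 mice) breathed room air spontaneously. The low stretch groups were ventilated during 3 h with breaths of 10 mL/kg, 2 cmH2O of end-expiratory pressure and a rate of 135 a minute, in room air (low stretch normocapnia, 5 mice) or with an inspired CO2 fraction of 0.12 (low stretch hypercapnia, 5 mice). The high stretch groups were ventilated during 3 h with breaths of 35 to 40 mL/kg to a peak pressure of 27 cmH2O, no end-expiratory pressure and 30 to 35 breaths a minute at an inspired oxygen fraction of 0.75, without CO2 (high stretch normocapnia, 10 mice) or with a CO2 fraction of 0.12 (high stretch hypercapnia, 10 mice). High and low stretch therefore differed in tidal volume, end-expiratory pressure, rate and oxygen at once, and their effects cannot be told apart. Ventilated mice were anesthetized and had a tracheostomy, so a contrast with non-ventilated mice may hold those steps too. The labels do not say whether the non-ventilated mice were anesthetized. All lungs were lavaged before they were frozen, which removes many of the cells lying free in the airspaces, so the RNA came from what stayed in the tissue and its vessels.

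Neutrophils are short-lived white blood cells that leave the marrow ready-made and are among the first cells to collect in an injured lung. They build their granules in order as they mature: azurophil granules first, in promyelocytes, then specific granules, then gelatinase granules, and the transcripts for the earlier granules are largely switched off before the cell enters the blood. A mature neutrophil therefore carries proteins such as myeloperoxidase and elastase with little of their messenger RNA, but keeps abundant messenger RNA for S100a8, S100a9, Mmp8 and several receptors. In whole lung, more cells of a type and more RNA per cell cannot be told apart.

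Most of these genes were higher in the ventilated lungs than in the non-ventilated ones, at either stretch and with or without CO2. A gene was called at a Benjamini-Hochberg adjusted p under 0.05 in limma, adjusted over all 19938 genes within the contrast. Against the non-ventilated lungs, 25 of the 33 genes rose in low stretch normocapnia, where 11.8% of all genes were called in either direction and 6.63% were called higher. In low stretch hypercapnia 21 of 33 rose (15% of all genes called, 7.99% higher). In high stretch normocapnia 26 of 33 rose (36.3% called, 17.4% higher), and in high stretch hypercapnia 26 of 33 rose (33.8% called, 16.3% higher). None of the 33 was called lower in any of these contrasts, where 5.17, 7.02, 18.9 and 17.6% of all genes were. The median log2 change of the 33 genes was 1.05, 0.86, 1.07 and 1.00 in the same order, against medians of -0.01, 0.00, -0.03 and -0.04 over all genes. The 4 contrasts share the 5 non-ventilated arrays and are not independent of each other.

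The same 21 genes were called higher in all 4 ventilated groups: Mmp8, Mmp9, S100a8, S100a9, Ngp, Pglyrp1, Ncf1, Itgam, Itgb2, Cd177, Ly6g, Trem1, Trem3, Cd300lf, Retnlg, Lrg1, Slfn1, Slfn4, Hdc, Padi4 and Arg2. Ncf4, Pilra, Wfdc21 and Steap4 were called in 3 groups, each time missing low stretch hypercapnia. Cybb was called in both high stretch groups. With the replicate block Pilra, Ncf4 and Cybb lost the high stretch hypercapnia call (adjusted p = 0.0664, 0.116 and 0.103). Under that setting Cybb lost the high stretch normocapnia call too (adjusted p = 0.0566). Pilra also lost the low stretch normocapnia call with only the groups compared (adjusted p = 0.184). Cybb gained that call with genes above the median level (adjusted p = 0.043). Of the 21, 13 kept all 4 calls under every alternative run. The other 8 lost at least 1 call in a low stretch group under some alternative: Mmp9, Pglyrp1, Ncf1, Itgb2, Trem3, Padi4, Ngp and Cd177. With only the groups compared in the fit, the first 6 of these lost the low stretch hypercapnia call, with adjusted p-values from 0.0691 (Padi4) to 0.149 (Ncf1). Camp, Ltf, Mpo, Elane, Prtn3, Dgat2 and Cebpe, 7 genes, were called in none.

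**Figure D1:**
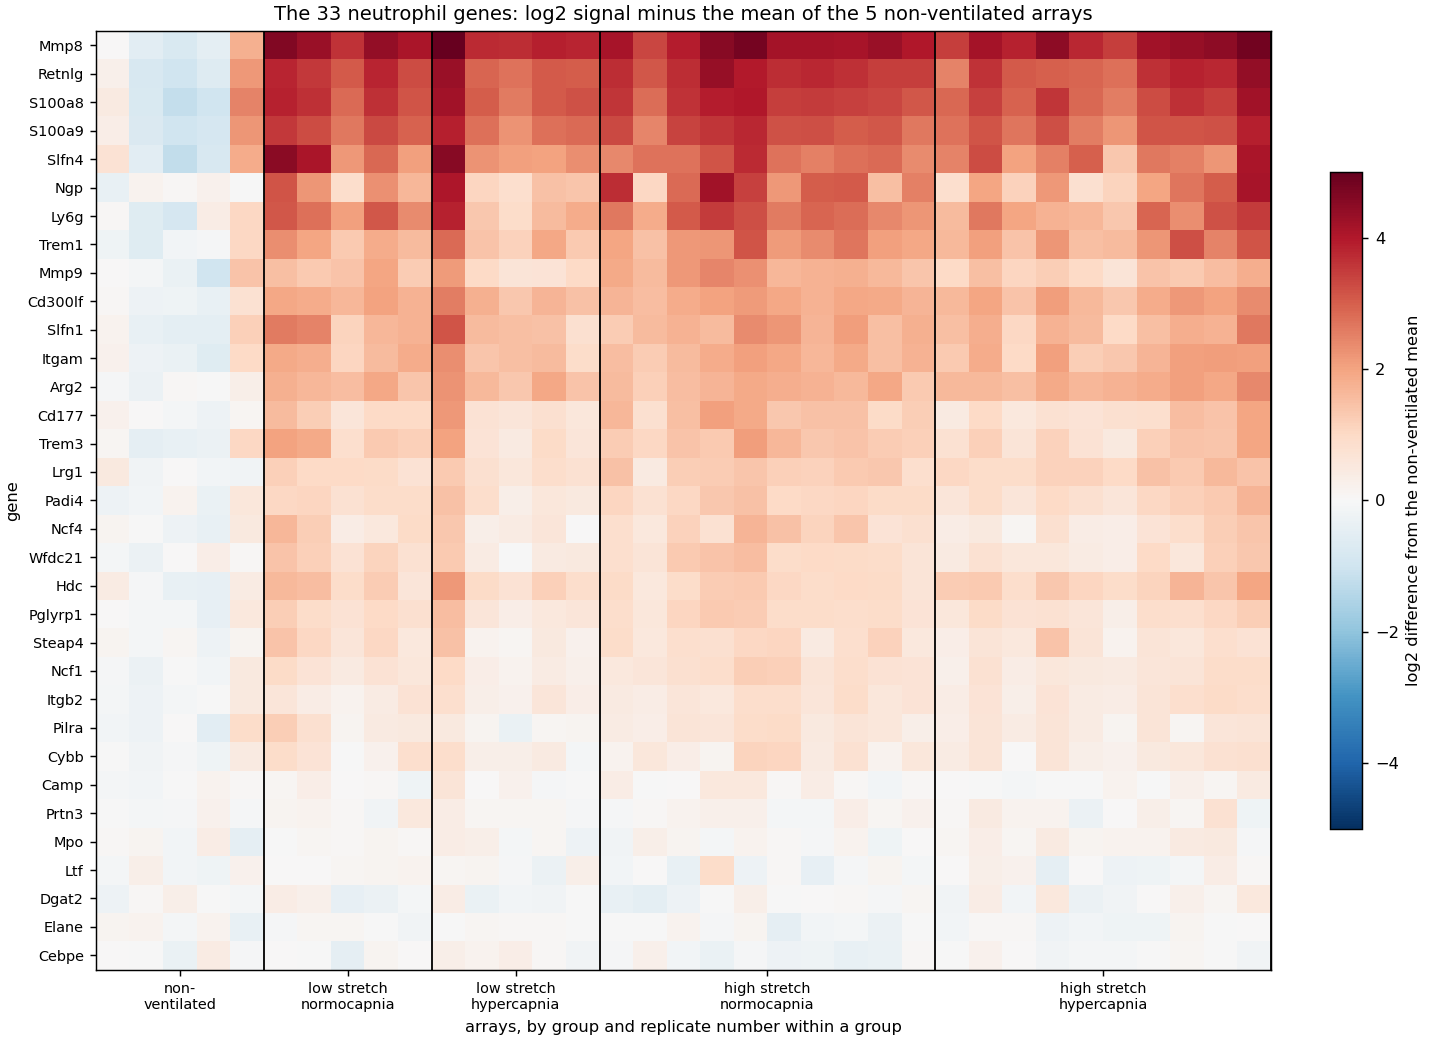
Log2 signal of each of the 33 genes (rows) on each of the 35 arrays (columns, in group order), minus the mean of the 5 non-ventilated arrays; red is higher and blue lower on a shared scale. The upper rows are red on all 30 ventilated arrays, the 7 lowest rows stay pale, and the last non-ventilated array and the first low stretch hypercapnia array are the reddest of their groups.

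Single arrays stood apart from their groups. In the non-ventilated group replicate 5 was the highest array in 21 of the 33 genes and in 15.3% of all genes. Its mean over the 33 genes lay 0.66 log2 above the non-ventilated mean, whereas the other 4 lay between -0.27 and 0.07. In low stretch hypercapnia replicate 1 was the highest array in 30 of 33 genes and in 27.6% of all genes, with a mean of 1.98 where the other 4 lay between 0.81 and 1.05. Low stretch normocapnia replicate 1 was the highest array in 22 of 33 genes (16.5% of all genes), with a mean of 1.70 where the others reached 1.50. High stretch hypercapnia replicate 10 was the highest in 21 of 33 (9.24% of all genes), with a mean of 1.85 where the others reached 1.56. Over groups, the mean difference from the non-ventilated lungs was 1.35 ± 0.28 (SD, n = 5) in low stretch normocapnia and 1.15 ± 0.47 (SD, n = 5) in low stretch hypercapnia. It was 1.40 ± 0.22 (SD, n = 10) in high stretch normocapnia and 1.27 ± 0.32 (SD, n = 10) in high stretch hypercapnia. Even the highest non-ventilated array, at 0.66, lay below the lowest ventilated array, at 0.81. Array medians over all probe sets ran only from 6.96 to 7.05. RMA normalizes all arrays to 1 distribution, so these medians cannot show whether the arrays differed before it. With non-ventilated replicate 5 and low stretch hypercapnia replicate 1 left out, a setting chosen after their values were seen, 26, 19, 26 and 26 genes were called higher than in non-ventilated lungs, in the order of the groups above. Without low stretch normocapnia replicate 1 alone 21 genes were called in its group, and without high stretch hypercapnia replicate 10 alone 26 in its group.

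**Figure D2:**
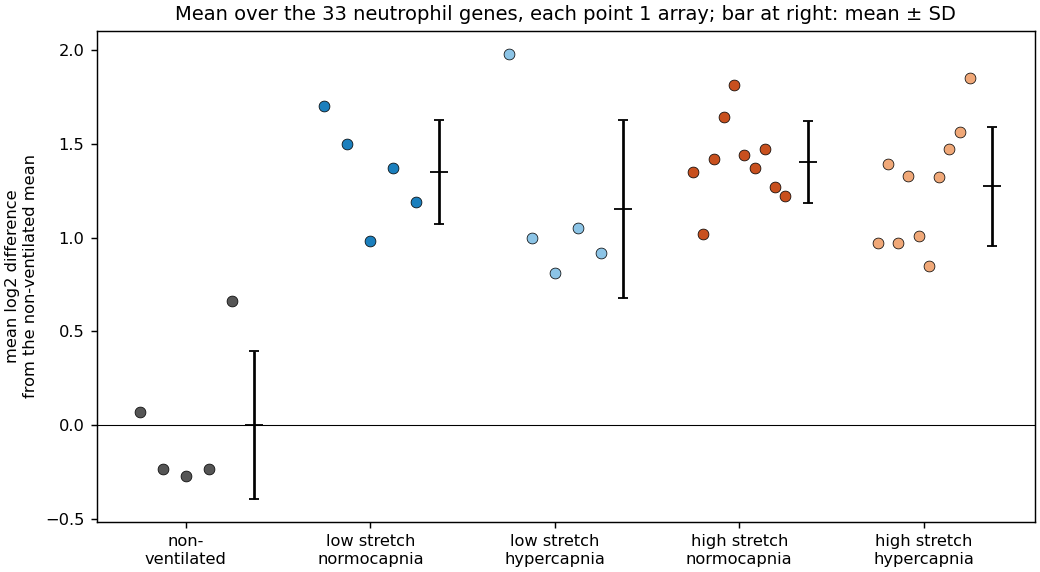
Mean over the 33 genes of the log2 difference from the non-ventilated mean, for each array (point), with the group mean and SD at the right of each group. All 30 ventilated arrays, from 0.81 up, lie above the highest non-ventilated array at 0.66, and low stretch hypercapnia replicate 1, at 1.98, is the highest of all.

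Gene by gene, the groups did not overlap, with every ventilated array above every non-ventilated array, for 18 of the 33 genes in low stretch normocapnia (4.65% of all genes). The counts were 12 in low stretch hypercapnia (4.96% of all genes), 21 in high stretch normocapnia (8.38%) and 13 in high stretch hypercapnia (7.26%). Without non-ventilated replicate 5 these counts were 26 (5.93%), 21 (6.2%), 25 (9.67%) and 24 (8.45%). That array was chosen after its values were seen. Leaving out an array can only raise such counts or leave them unchanged, so the increase is not a test.

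Mmp8, the neutrophil collagenase stored in specific granules, had the largest change of the 33 genes in each of the 4 contrasts with non-ventilated lungs. Its log2 signal was 6.87, 6.31, 6.09, 6.36 and 8.65 in the non-ventilated arrays and 11.50, 11.16, 10.48, 11.26 and 10.93 in low stretch normocapnia. It was 11.98, 10.59, 10.54, 10.74 and 10.67 in low stretch hypercapnia. All ventilated arrays lay above 8.65, the highest non-ventilated value: the high stretch normocapnia arrays ran from 10.21 (median 10.99) to 11.63 and those of high stretch hypercapnia from 10.30 (median 11.04) to 11.69. The fold over non-ventilated lungs was 18.5 in low stretch normocapnia (log2 change 4.21 ± 0.34 SE, adjusted p = 7.64e-11), 16.6 in low stretch hypercapnia, 17.7 in high stretch normocapnia and 17.2 in high stretch hypercapnia. The means of the 4 ventilated groups differed from each other by at most 0.16 log2. Mmp9, gelatinase B of the last-formed granules, rose less, 2.82-fold in low stretch normocapnia (1.49 ± 0.29 SE) and 3.62-fold in high stretch normocapnia (1.86 ± 0.25 SE). Its non-ventilated replicate 5, at 8.92, lay within the range of the ventilated arrays.

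S100a8 and S100a9 encode the subunits of calprotectin, which fills the neutrophil cytosol, binds calcium and withholds zinc and manganese from microbes. S100a8 read 8.36, 7.17, 6.71, 6.93 and 10.41 in the non-ventilated arrays, a span of several doublings within 1 group. In low stretch normocapnia it read 11.77, 11.58, 10.75, 11.55 and 11.05, and in low stretch hypercapnia 12.12, 10.93, 10.50, 10.98 and 11.11. It ran from 10.72 (median 11.40) to 11.91 in high stretch normocapnia and from 10.47 (median 11.27) to 12.11 in high stretch hypercapnia. Every ventilated array was above every non-ventilated array, the nearest being 10.47 against 10.41. The folds were 10.7, 9.25, 11.1 and 9.74 in the order of the groups (3.42 ± 0.42 SE and adjusted p = 3.83e-07 in low stretch normocapnia). The SD of S100a8 was 1.53 in the non-ventilated group and 0.35 to 0.60 in the ventilated groups. The SE uses 1 spread shared by all groups, so it does not carry the larger non-ventilated spread in full. S100a9 followed with folds of 8.80, 7.43, 8.98 and 7.94, and its non-ventilated replicate 5, at 10.11, equalled the lowest high stretch hypercapnia array.

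Among the specific granule proteins the genes split. Ngp, neutrophilic granule protein of the cystatin-related family, rose in all 4 groups, and Pglyrp1, a peptidoglycan-binding antibacterial protein, rose by smaller folds of 1.92, 1.64, 1.92 and 1.73. Camp, the cathelicidin precursor, and Ltf, the iron-binding lactoferrin, did not pass the test in any group. Ngp read 5.54, 6.09, 5.98, 6.13 and 5.91 in non-ventilated lungs, where replicate 5 was not high. It read 9.09, 8.14, 6.79, 8.20 and 7.58 in low stretch normocapnia and 9.97, 6.99, 6.78, 7.38 and 7.33 in low stretch hypercapnia. In high stretch normocapnia it ran from 6.95 (median 8.86) to 10.13, and in high stretch hypercapnia from 6.75 (median 7.92) to 10.05. No ventilated array overlapped the non-ventilated ones, but the ventilated arrays spread widely. Ngp had the largest SD of the 33 genes in low stretch hypercapnia (1.30), high stretch normocapnia (0.97) and high stretch hypercapnia (1.07), where the median SD over all genes was 0.15, 0.13 and 0.14. Its log2 change was 2.03 ± 0.58 SE (adjusted p = 0.0166), 1.76 ± 0.58 SE (adjusted p = 0.0342), 2.74 ± 0.50 SE and 1.99 ± 0.50 SE. Without that group's replicate 1 and non-ventilated replicate 5 the change in low stretch hypercapnia was 1.19 and no longer called (adjusted p = 0.224).

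Camp stayed between 5.89 and 6.76 on all 35 arrays, with log2 changes of 0.05 ± 0.13, 0.16 ± 0.13, 0.19 ± 0.11 and 0.08 ± 0.11 (SE). Its highest ventilated arrays were largely those of Ngp. Of the 6 highest of the 30 ventilated arrays for Ngp, all at 9.09 or above, 5 were also among the 6 highest for Camp, all at 6.49 or above: high stretch normocapnia replicates 1, 4 and 5, low stretch hypercapnia replicate 1 and high stretch hypercapnia replicate 10. The next values were 8.98 and 6.46, close to these. For Ltf, whose 6 highest ventilated arrays read 9.50 to 10.24, the overlap with Ngp was 1 array, high stretch normocapnia replicate 4. These overlaps were noticed in the values and carry no test, and the 5 arrays shared by Ngp and Camp had mean differences from the non-ventilated lungs over the 33 genes of 1.35 to 1.98.

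**Figure D3:**
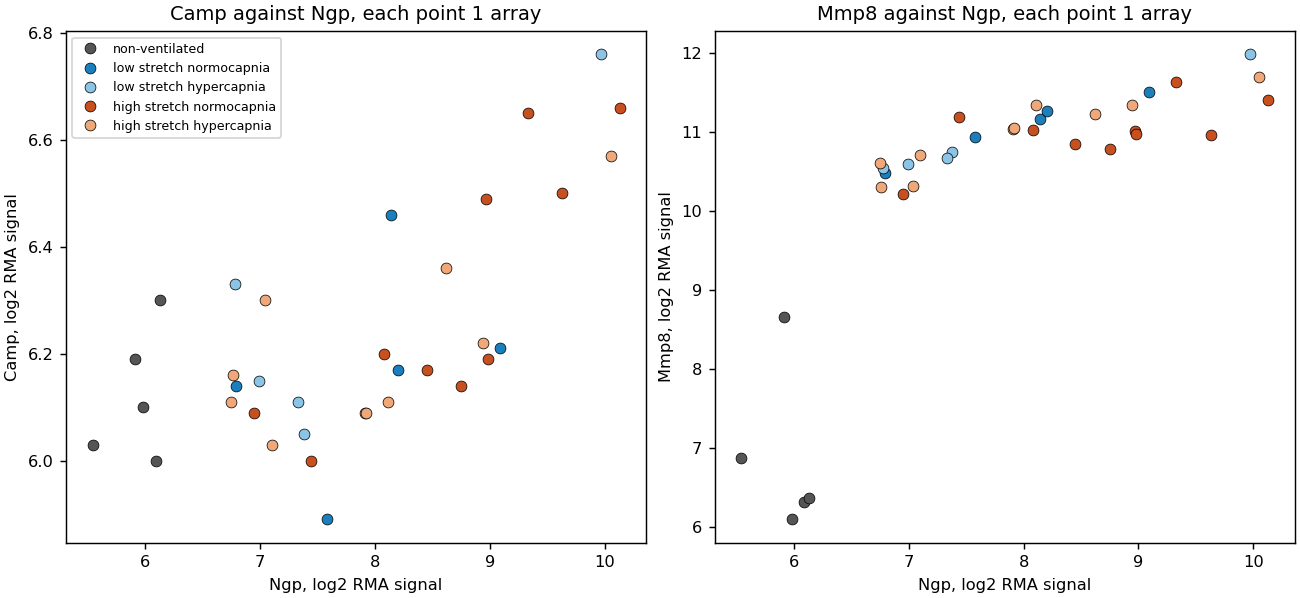
Log2 signal of Camp (left, vertical axis) and Mmp8 (right, vertical axis) against that of Ngp (horizontal axis), each point 1 array coloured by group. The 6 highest ventilated Camp values, 6.49 to 6.76, lie at Ngp signals of 8.97 or more, and non-ventilated replicate 5 is high for Mmp8 (8.65) but not for Ngp (5.91).

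The azurophil granule genes Mpo (myeloperoxidase), Elane (neutrophil elastase) and Prtn3 (proteinase 3) did not pass the test in any of the 4 contrasts with non-ventilated lungs. Elane read 5.98, 6.01, 5.75, 6.03 and 5.49 in non-ventilated lungs and 5.78, 5.96, 5.95, 5.83 and 5.66 in low stretch normocapnia. It read 5.84, 5.95, 5.92, 5.90 and 5.84 in low stretch hypercapnia, 5.40 to 6.02 (median 5.81) in high stretch normocapnia and 5.61 to 6.00 (median 5.77) in high stretch hypercapnia. The groups overlapped throughout, and the log2 changes were -0.02 ± 0.10, 0.04 ± 0.10, -0.08 ± 0.09 and -0.07 ± 0.09 (SE). Mpo changed by 0.07 ± 0.12, 0.09 ± 0.12, 0.03 ± 0.11 and 0.23 ± 0.11, and Prtn3 by 0.14 ± 0.14, 0.12 ± 0.14, 0.11 ± 0.12 and 0.15 ± 0.12. Mpo was called higher in high stretch hypercapnia under 2 alternatives, with the array spread as a covariate (0.30, adjusted p = 0.00852) and without non-ventilated replicate 4 (0.33, adjusted p = 0.018). Cebpe, the transcription factor that drives specific granule genes in maturing marrow cells, read from 5.68 to 6.51 over all arrays and did not pass either. Camp, Mpo, Elane, Prtn3 and Cebpe, like Padi4, had mean signals below the median of all genes (7.44). A probe set near its background can show a change compressed or not at all. Whether these probe sets lay near background was not tested, and Padi4 was called in all 4 groups. Ltf and Dgat2, which also did not pass, lay above that median.

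The promoters of 4 genes are shown because these genes stood at different ends of the response. Mmp8 and S100a8 were among the most raised, Ngp was raised and had the largest SD of the 33 genes in 3 of the 4 ventilated groups, and Elane did not pass the test. Each window runs from 250 bases before to 50 bases after the RefSeq start of the gene in GRCm38.p6, on the strand given. Capitals mark matches to GAGGAAGT, the letters searched for PU.1, or to TTGCNNAA, the letters searched for C/EBP factors, both regulators of myeloid genes, on either strand, so that ACTTCCTC is the PU.1 letters read on the opposite strand. No matches of the 2 motifs overlapped.
Mmp8, chr9:7558179-7558478, plus strand: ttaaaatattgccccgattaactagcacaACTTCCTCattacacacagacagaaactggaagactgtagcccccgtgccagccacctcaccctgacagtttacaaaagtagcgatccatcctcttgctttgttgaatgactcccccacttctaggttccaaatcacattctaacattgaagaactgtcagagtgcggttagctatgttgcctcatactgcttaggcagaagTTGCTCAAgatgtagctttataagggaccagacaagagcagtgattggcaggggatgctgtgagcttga
S100a8, chr3:90668821-90669120, plus strand: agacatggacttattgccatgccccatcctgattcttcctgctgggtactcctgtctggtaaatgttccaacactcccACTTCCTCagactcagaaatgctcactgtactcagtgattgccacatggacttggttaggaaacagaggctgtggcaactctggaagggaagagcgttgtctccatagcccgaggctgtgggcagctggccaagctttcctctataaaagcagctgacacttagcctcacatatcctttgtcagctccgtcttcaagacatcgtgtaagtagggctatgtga
Ngp, chr9:110419558-110419857, plus strand: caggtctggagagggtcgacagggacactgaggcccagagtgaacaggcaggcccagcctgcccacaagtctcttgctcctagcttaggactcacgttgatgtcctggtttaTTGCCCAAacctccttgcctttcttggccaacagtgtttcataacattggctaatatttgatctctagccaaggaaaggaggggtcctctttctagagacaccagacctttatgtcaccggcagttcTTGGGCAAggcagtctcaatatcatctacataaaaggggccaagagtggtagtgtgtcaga
Elane, chr10:79886062-79886361, plus strand: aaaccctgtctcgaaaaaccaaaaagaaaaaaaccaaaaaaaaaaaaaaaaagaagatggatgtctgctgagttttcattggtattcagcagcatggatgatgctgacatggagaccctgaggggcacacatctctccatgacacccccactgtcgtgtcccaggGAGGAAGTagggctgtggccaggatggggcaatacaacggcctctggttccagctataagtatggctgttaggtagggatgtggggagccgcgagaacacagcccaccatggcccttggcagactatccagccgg

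RefSeq windows were found for 25 of the 33 genes, 26 windows in all. GAGGAAGT was in a window of 7 of the 25 genes: Cd300lf, Elane, Ly6g, Mmp8, Mpo, Prtn3 and S100a8. It was in 3.2% of all 32851 windows of this length. TTGCNNAA was in a window of 8 genes, Ltf, Ly6g, Mmp8, Ngp, Pilra, Retnlg, S100a9 and Steap4, and in 10.8% of all windows. The PU.1 letters were thus found both in genes that rose 10.7-fold or more in low stretch normocapnia (Mmp8, S100a8) and in the 3 azurophil genes that did not pass, and the C/EBP letters both in genes that rose (Ngp, Retnlg) and in Ltf, which did not. A match of letters is a description of the window, not of binding.

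The oxidase subunits rose modestly. Ncf1, the p47phox organizer, rose 1.60-fold in low stretch normocapnia (0.68 ± 0.15 SE, adjusted p = 0.00174) and 1.76-fold in high stretch normocapnia (0.82 ± 0.13 SE). Ncf4, the p40phox subunit, rose 1.93-fold and 2.05-fold in those groups and 1.58-fold in high stretch hypercapnia, and in low stretch hypercapnia its change of 0.53 ± 0.25 SE did not pass (adjusted p = 0.173). Cybb, the membrane subunit gp91phox that macrophages also express, changed by 0.53 ± 0.19 SE in low stretch normocapnia (adjusted p = 0.0711) and rose by 0.54 ± 0.17 SE in high stretch normocapnia (adjusted p = 0.00976).

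All 4 integrins and surface antigens rose in all 4 groups. Ly6g, the surface antigen by which mouse neutrophils are usually recognised, read 6.33, 5.66, 5.43, 6.62 and 7.30 in non-ventilated lungs and 9.39, 9.02, 8.30, 9.36 and 8.64 in low stretch normocapnia. In low stretch hypercapnia it read 10.11, 7.63, 7.19, 7.85 and 8.12, so that replicate 1 was the highest of all 35 arrays and replicate 3 fell below the highest non-ventilated array. High stretch normocapnia arrays ran from 8.12 (median 8.97) to 9.77 and high stretch hypercapnia arrays from 7.63 (median 8.40) to 9.75. The folds were 6.37, 3.76, 6.56 and 4.84 (2.67 ± 0.42 SE and adjusted p = 3.02e-05 in low stretch normocapnia). Cd177, a glycoprotein of the neutrophil surface, read 7.12 to 7.60 in non-ventilated lungs and 7.82 to 9.55 in ventilated ones, with no overlap, and rose 2.11, 1.95, 2.70 and 2.00-fold. Itgam, the CD11b chain of the integrin Mac-1 that lets neutrophils grip endothelium, rose 3.13, 2.92, 3.26 and 3.17-fold. Itgb2, the CD18 chain shared by other leukocyte integrins, rose 1.37, 1.38, 1.57 and 1.53-fold.

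**Figure D4:**
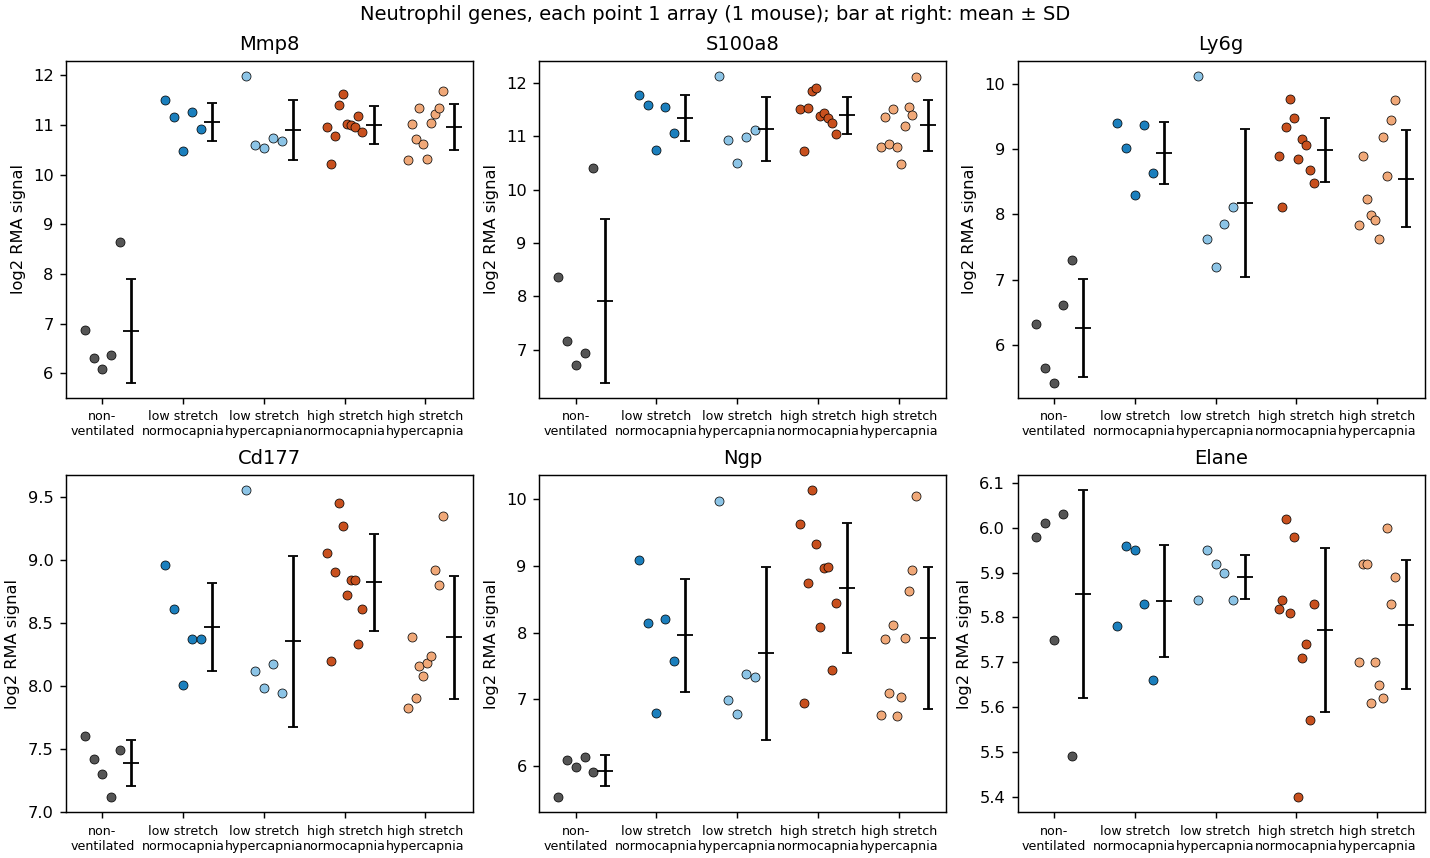
Log2 signal of 6 of the genes in the 5 groups, each point 1 array, with the group mean and SD at the right of each group; the vertical axes differ between panels and do not start at 0. Mmp8, S100a8, Cd177 and Ngp have no ventilated array below the highest non-ventilated one, Ly6g has 1 low stretch hypercapnia array at 7.19 below the highest non-ventilated value of 7.30, and Elane overlaps throughout.

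The receptors of the TREM and paired families also rose. Trem1, which amplifies inflammatory signals in neutrophils and monocytes, read 6.34, 5.92, 6.39, 6.50 and 7.56 in non-ventilated lungs and at least 7.69 on every ventilated array. It rose 3.52, 3.32, 4.63 and 4.41-fold. Cd300lf, an inhibitory receptor of myeloid cells, rose by nearly the same amount everywhere, 3.61, 3.39, 3.61 and 3.60-fold, and its ventilated group means spanned 9.80 to 9.89. Trem3, an activating receptor of the family in mice, rose 2.74, 1.92, 2.65 and 2.13-fold. Pilra, an inhibitory paired receptor, rose 1.53, 1.50 and 1.37-fold in low stretch normocapnia, high stretch normocapnia and high stretch hypercapnia, and in low stretch hypercapnia its change was 0.10 ± 0.19 SE (adjusted p = 0.824).

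Of the secreted proteins, Retnlg, a resistin-like protein of mouse neutrophils, had the second largest change in low stretch normocapnia. It read 8.49, 7.40, 7.21, 7.59 and 10.40 in non-ventilated lungs and from 10.71 to 12.63 on the 30 ventilated arrays, without overlap. Its folds were 11.3, 9.15, 12.8 and 10.2 (3.50 ± 0.39 SE and adjusted p = 9.64e-08 in low stretch normocapnia). Lrg1, a leucine-rich glycoprotein held in neutrophil granules and also made by endothelium, rose 1.96, 1.81, 2.24 and 2.29-fold. Wfdc21, a small whey acidic protein, rose 2.07, 2.03 and 1.65-fold in 3 groups and changed by 0.52 ± 0.20 SE in low stretch hypercapnia (adjusted p = 0.0778).

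The Schlafen genes, which respond to interferon and mark myeloid cells in the mouse, were among the more raised and more scattered. Slfn4 read 8.36, 7.14, 6.44, 6.84 and 9.49 in non-ventilated lungs, 12.17, 11.74, 9.83, 10.53 and 9.69 in low stretch normocapnia and 12.19, 9.89, 9.72, 9.65 and 9.98 in low stretch hypercapnia. It ran from 10.03 (median 10.36) to 11.40 in high stretch normocapnia and from 8.99 (median 10.17) to 11.72 in high stretch hypercapnia. The arrays above 12, replicate 1 of each low stretch group, were also the highest of their groups in 22 and 30 of the 33 genes. The Slfn4 folds were 8.81, 6.19, 6.90 and 6.07. Slfn1 rose 3.78, 3.26, 3.43 and 3.12-fold. Slfn1, Slfn4 and Ly6g belong to families of similar genes, and cross-hybridisation between relatives was not tested.

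Among the enzymes, Arg2, the mitochondrial arginase, read 6.87 to 7.45 in non-ventilated lungs and at least 8.37 on every ventilated array. It rose 3.13, 3.26, 3.10 and 3.54-fold. Hdc, which makes histamine and is also active in basophils and mast cells, rose 2.29, 2.29, 1.93 and 2.47-fold. Padi4, which citrullinates histones when neutrophils release chromatin traps, rose 1.93, 1.65, 2.11 and 1.97-fold. Steap4, a metal reductase, rose 1.90, 1.77 and 1.57-fold in 3 groups and changed by 0.49 ± 0.20 SE in low stretch hypercapnia (adjusted p = 0.105). Dgat2, the last enzyme of triglyceride synthesis, which many lung cells use, did not pass in any group, with changes from -0.07 to 0.11.

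No change among the 33 genes passed the test when high stretch was set against low stretch. In normocapnia 0 of 33 were called by limma, while 18.3% of all genes were called, and 0 of 33 had an unadjusted p under 0.05 where 5688 of all genes did. The median log2 difference over the 33 genes was 0.00, with 17 above and 16 below 0. For 31 of the 33 genes the 95% interval lay within 1 log2 of 0. The exceptions were Ngp, at 0.71 with an interval of -0.31 to 1.73, and Slfn4, at -0.35 with an interval of -1.25 to 0.54. Mmp8 differed by -0.06 (-0.65 to 0.53), S100a8 by 0.05 (-0.68 to 0.78), Ly6g by 0.04 (-0.70 to 0.79) and Cd300lf by less than 0.01 in size (-0.34 to 0.34). Differences inside these intervals are not excluded by these arrays. In hypercapnia 0 of 33 were called between high and low stretch (10.1% of all genes called), the median was 0.13, and 27 genes were above 0. Lrg1 (0.34, interval 0.05 to 0.62, adjusted p = 0.123) and Pilra (0.36, interval 0.02 to 0.69, adjusted p = 0.177) had unadjusted p-values under 0.05. That contrast includes low stretch hypercapnia replicate 1, the highest array of its group. Without it and non-ventilated replicate 5, Pilra (0.45, adjusted p = 0.0388), Lrg1 (0.45, adjusted p = 0.0387) and Padi4 (0.43, adjusted p = 0.0498) were called higher at high stretch.

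**Figure D5:**
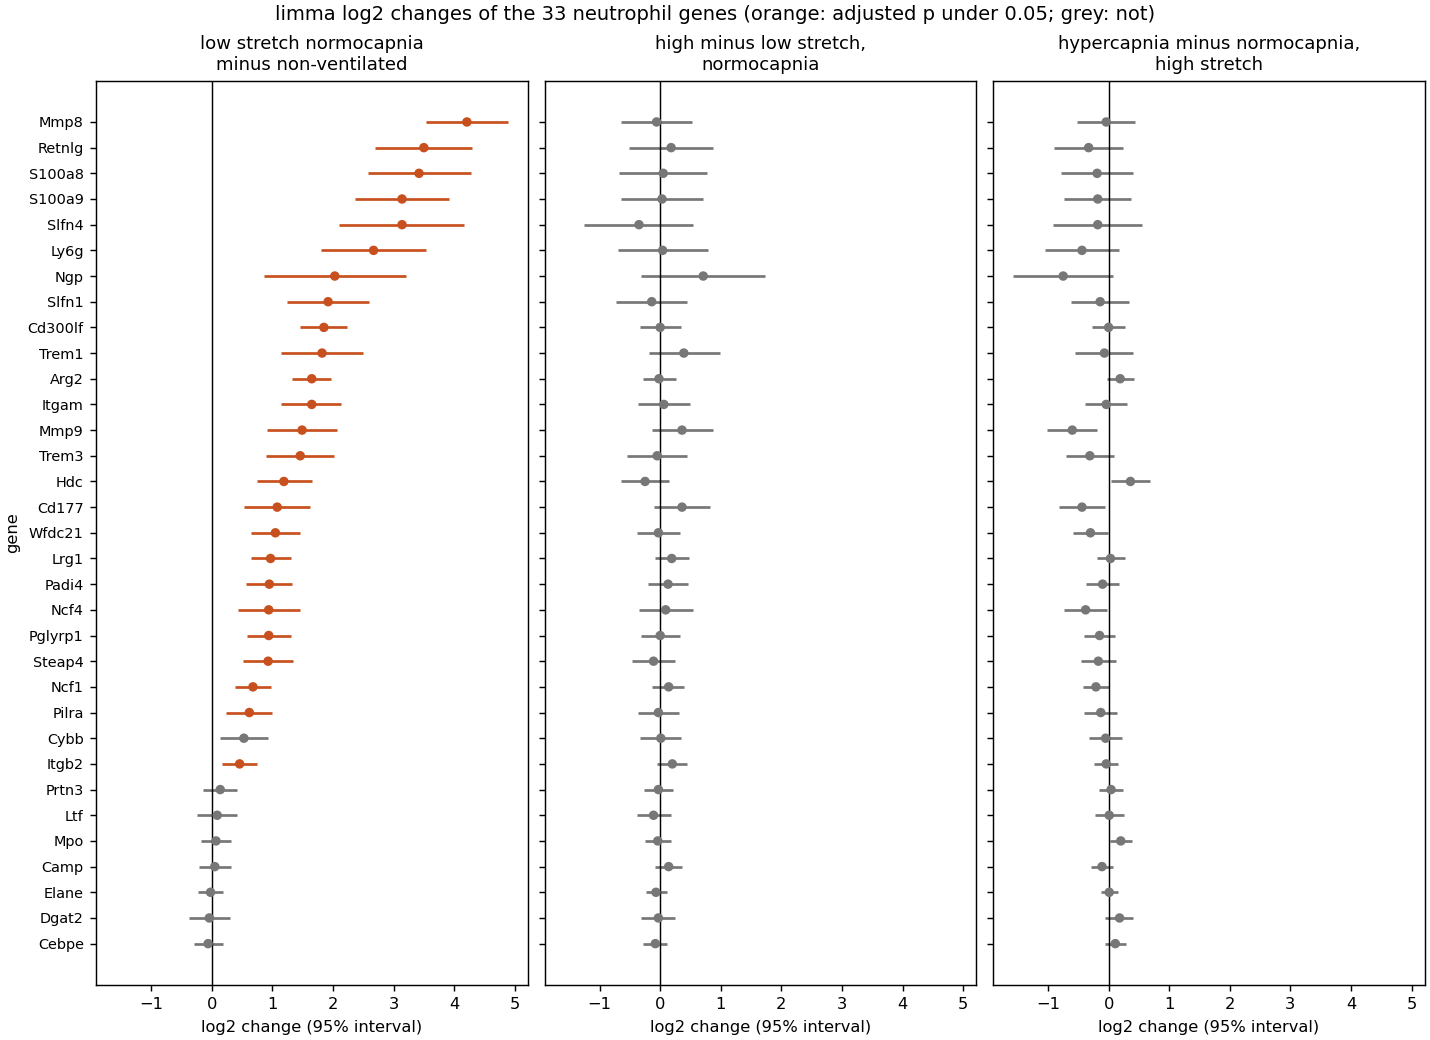
Log2 change of each of the 33 genes with its 95% interval in 3 contrasts, low stretch normocapnia against non-ventilated (left), high against low stretch in normocapnia (middle) and hypercapnia against normocapnia at high stretch (right); orange marks an adjusted p under 0.05. In the left panel 25 genes are orange, up to 4.21 for Mmp8, and in the other panels none is.

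Hypercapnia at low stretch left 0 of 33 genes called (0.115% of all genes called), with 3 at an unadjusted p under 0.05. The median log2 difference was -0.17, and 26 of the 33 values were below 0, while the median over all genes was 0.01. The values furthest below 0 were Ly6g at -0.76 (interval -1.62 to 0.10), Wfdc21 at -0.53 (-0.94 to -0.12, adjusted p = 0.348), Trem3 at -0.52 (-1.08 to 0.05) Pilra at -0.51 (-0.90 to -0.13, adjusted p = 0.332) and Slfn4 at -0.51 (-1.54 to 0.53). For 26 genes the interval lay within 1 log2 of 0. Replicate 1 of the hypercapnia group was the highest array in most of these genes. In those genes the mean of the other 4 arrays was lower than the group mean, as for the Ly6g values above.

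Hypercapnia at high stretch, with 10 arrays a side, left 0 of 33 genes called (5.56% of all genes called) and 6 with an unadjusted p under 0.05. Mmp9 came nearest to the threshold. Its high stretch normocapnia arrays ran from 8.88 (median 9.27) to 9.94 and its high stretch hypercapnia arrays from 8.16 (median 8.76) to 9.33, so the groups overlapped. The difference was -0.60 (interval -1.01 to -0.19, adjusted p = 0.0768). It was called when the fit held only those 2 groups (adjusted p = 0.0122) and with array weights, where the difference was -0.67 (adjusted p = 0.0057). The others were Cd177 at -0.44 (adjusted p = 0.192), Ncf4 at -0.38 (adjusted p = 0.256), Wfdc21 at -0.30 (adjusted p = 0.272), Hdc at 0.36 (adjusted p = 0.214) and Mpo at 0.20 (adjusted p = 0.196). Ngp had the largest difference in size, -0.75, with an interval of -1.58 to 0.08. With array weights Ngp (-1.07, adjusted p = 0.043), Cd177 (-0.57, adjusted p = 0.0116) and Ncf4 (-0.50, adjusted p = 0.0363) were called lower with CO2 too. The median over the 33 genes was -0.11, with 24 below 0, and for 30 genes the interval lay within 1 log2 of 0. Mmp8 differed by -0.04 (-0.52 to 0.44) and S100a8 by -0.19 (-0.79 to 0.41).

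The effect of CO2 was not shown to depend on stretch for any of the 33 genes. The interaction term had 0 calls among the 33 and 0% among all genes, with 0 of the 33 and 893 of all genes at an unadjusted p under 0.05. Its intervals were wide, from -1.92 for Ngp to 1.59 for Slfn4, and 27 of 33 lay within 1 log2 of 0. By group mean, high stretch normocapnia was highest in 16 of the 33 genes, low stretch normocapnia in 9, high stretch hypercapnia in 6, low stretch hypercapnia in 2 and the non-ventilated group in 0. Among the ventilated groups these orders rest on differences that did not pass the test.

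Wider lists of neutrophil genes were read in the same contrasts. Of 17 other receptors of neutrophils, 12 rose and 1 fell in low stretch normocapnia. Il1r2, the decoy receptor for interleukin 1, rose by 4.07 log2, about as far as Mmp8, followed by the pattern receptors Clec4e (3.38) and Clec4d (3.24). Cxcr4, which holds neutrophils in the marrow and is also found on lymphocytes, fell by 0.31. In high stretch normocapnia 16 of the 17 rose and 1 fell, and between high and low stretch in normocapnia only Tlr2 of the 17 was called (0.76, adjusted p = 0.0257). The mean level of these receptors ran from 7.33 to 7.77 on 4 non-ventilated arrays and was 8.56 on replicate 5, so that array was high in them too. Of 14 other granule and antimicrobial genes, 4 rose and 1 fell in low stretch normocapnia. Adam8, a membrane protease, rose by 0.90, Olfm4, a specific granule protein, by 0.82, Mmp25, a membrane-bound metalloproteinase of leukocytes, by 0.78 and Lcn2, a siderophore-binding granule protein, by 0.76. Serpinb1a, an inhibitor of the azurophil proteases, fell by 0.62, but changed by 0.22 in high stretch normocapnia (adjusted p = 0.127). Between high and low stretch, 2 of the 14 were higher at high stretch in normocapnia (18.3% of all genes called). In hypercapnia 3 of the 14 were (10.1% of all genes called). Of the azurophil genes on that list, Ctsg (cathepsin G) changed by 0.18 in low stretch normocapnia (adjusted p = 0.277) and rose by 0.23 in high stretch normocapnia (adjusted p = 0.0321). Of the 3 other oxidase genes measured, Rac2, the haematopoietic Rac GTPase, rose by 0.64. Of 7 myeloid transcription factors 4 rose, with Mxd1 at 1.17, Spi1, which encodes PU.1, at 0.77, Cebpd at 0.66 and Cebpb at 0.51, and Irf8, a factor for monocyte fate, fell by 0.44.

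Of the 5 chemokines and growth factors that recruit neutrophils, Cxcl1 and Cxcl5 were called between the stretch levels. In low stretch normocapnia none of them passed the test against non-ventilated lungs, Cxcl2 having the smallest p (1.43 ± 0.49 SE, adjusted p = 0.0511). In high stretch normocapnia Cxcl2 (2.24), Cxcl5 (1.69) and Cxcl1 (0.95) rose. High stretch exceeded low stretch in normocapnia for Cxcl5 by 1.34 (adjusted p = 1.52e-05) and for Cxcl1 by 1.10 (adjusted p = 1.83e-05). At high stretch Cxcl5 was lower with CO2 by a log2 difference of -0.90 (adjusted p = 0.00102), in the contrast where 0 of the 33 neutrophil genes were called, or 4 with array weights (Mmp9, Ngp, Ncf4 and Cd177), all lower with CO2.

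Markers of other cells moved as well. In low stretch normocapnia 9 of 9 B cell markers fell, with a median of -1.30, led by Ms4a1 (-1.45), Fcer2a (-1.41) and Cd79a (-1.36). The mean B cell level ran from 7.75 to 8.41 on non-ventilated arrays and from 6.30 to 7.45 on ventilated ones, and 7 of the 9 were higher at high than at low stretch in normocapnia. Of 11 T and NK cell markers 4 fell, led by Cd2 (-0.74), Ncr1 (-0.66) and Cd3g (-0.53). Of 9 monocyte and interstitial macrophage markers, Vcan (2.11) and F13a1 (1.65) rose. In each high stretch group 6 of the 9 rose, where 17.4% (normocapnia) and 16.3% (hypercapnia) of all genes were called higher. In normocapnia these were Vcan (2.15), F13a1 (1.73), Ccr2 (1.27), Nr4a1 (1.12), Adgre1 (0.33) and C1qb (0.28). Nr4a1 changed by -0.57 in low stretch normocapnia (adjusted p = 0.289). Cx3cr1 fell in low stretch hypercapnia (-0.77, adjusted p = 0.0018) and in high stretch hypercapnia (-0.67). Monocytes also express several of the 33 genes. The list's mean level ran from 8.37 to 9.08 in non-ventilated lungs, 8.75 to 9.48 in low stretch normocapnia, 8.86 to 9.44 in low stretch hypercapnia, 9.12 to 9.92 in high stretch normocapnia and 8.94 to 9.73 in high stretch hypercapnia. Non-ventilated replicate 5 was the highest of its group in this monocyte mean (9.08) too, and replicate 1 of low stretch hypercapnia (9.44) was the highest of its group. No alveolar macrophage marker of 8 was called in low stretch normocapnia, with Mrc1 nearest (0.31, adjusted p = 0.0799). Of 10 eosinophil, basophil and mast cell markers only Il5ra was called in low stretch normocapnia, and it fell by 0.51. The mast cell and basophil genes Cpa3 and Mcpt8 changed by -0.02 and -0.04 there, beside the rise of Hdc. In high stretch hypercapnia, where Hdc was highest, 1 of the 10 markers rose and 2 fell (33.8% of all genes called). Their changes ran from -0.39 to 0.44. At high stretch 1 of the 10 was higher with CO2 (5.56% of all genes called). In low stretch normocapnia, of 7 platelet markers Tubb1 (0.68) and Itga2b (0.40) rose. The red cell genes Alas2 and Slc4a1 changed by -0.26 and -0.27 and did not pass (adjusted p = 0.664 and 0.634). Of 10 endothelial markers 7 fell, led by Sox17 (-0.78), Egfl7 (-0.72) and Kdr (-0.71), and 3 of 9 alveolar type 2 markers fell, led by Lpcat1 (-0.47), Etv5 (-0.41) and Lamp3 (-0.18). The alveolar type 2 markers stayed high on all arrays, with list means of 11.76 to 12.28, as lung tissue has them. The part of these other cells in the neutrophil gene values was not tested.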

How the data were processed

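Lung RNA was purified with Trizol and RNeasy columns and measured, per the labels' protocols, with the whole-transcript kit of Affymetrix on 35 arrays in 5 groups. The authors deposited log2 signals; the submitters' processing notes name RMA, Affymetrix Expression Console and Partek, without versions or roles. RMA normalizes all arrays to 1 distribution, so a change is relative to the array. Of 35557 probe sets, 21789 had 1 gene symbol in the platform annotation supplied, 1621 several and 12147 none, which gave 19938 genes. Dim genes were kept.

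A mean per group was estimated in limma 3.58.1 (R 4.3.3; lmFit, eBayes) from all 35 arrays together, with 9 contrasts, two-sided tests and Benjamini-Hochberg adjustment within a contrast. The procedure was tested on simulated data. The genes and lists were chosen with earlier results of these data known. From each wider list the 3 largest changes called in low stretch normocapnia are named, or the smallest p where none was; Cxcr4, Tlr2, Ctsg, Cpa3, Mcpt8, Lcn2, Serpinb1a, Cebpb, Irf8, the other chemokines and the further monocyte markers were added after their values were seen. Each array is a separate mouse, and no batch is given. The number of arrays limits the precision. Alternatives were fits of the groups compared, a block for the replicate number, weights per array, trend and robust options, genes above the median level, probe sets averaged, median centring, a second quantile normalization, array spread as a covariate, and each array left out.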

Additional observations from a re-analysis of the deposited data

Results flagged for a closer look

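Of 165 combinations of gene and group, 14 held an array whose gap to the next exceeded the 95% limit of Dixon's test, where chance gives about 5%. In 8 of them low stretch hypercapnia replicate 1 was the high array, in log2 signal: Mmp8 (11.98, next 10.74), Mmp9 (9.62, next 8.49), Ngp (9.97, next 7.38), Pglyrp1 (10.17, next 9.23), Cd177 (9.55, next 8.17), Retnlg (12.53, next 11.28), Slfn4 (12.19, next 9.98) and Steap4 (10.24, next 9.26). These 8 share 1 array and are not separate events.

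The other 6 lay on other arrays. Ltf was high on high stretch normocapnia replicate 4 (10.24, next 9.49), an array that was also the highest of its group for Ngp. Cybb was high on non-ventilated replicate 5 (11.26, next 10.80) and Lrg1 on non-ventilated replicate 1 (9.45, next 8.96). Slfn1 was high on high stretch hypercapnia replicate 10 (10.56, next 9.74) and Steap4 on replicate 4 of that group (10.20, next 9.61). Cebpe was low on low stretch normocapnia replicate 3 (5.68, next 6.10). No interaction of CO2 and stretch passed the test for any of the 33 genes.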

How the results depend on the processing

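No gene's change reversed in a call under any alternative run. Of 2619 gene results under 9 other settings of the fit, 29 crossed the threshold, and of 4620 with 1 array left out, 36 were lost and 6 gained. Averaging probe sets, among those settings, could not alter the signals of these genes, as each had 1 probe set. For hypercapnia at high stretch, 0 genes became 1 with only the groups compared (Mmp9), where 1127 of all genes were called. With array weights 4 were called (Mmp9, Ngp, Ncf4 and Cd177), where 2052 of all genes were. With genes above the median level 1 was called (Mmp9), with fewer genes tested and 1313 of them called. For the other settings the cause was not tested. Leaving out 1 array gave 0 to 1 genes for hypercapnia at high stretch. The 1 was without high stretch hypercapnia replicate 10, where 1129 of all genes were called. For stretch in hypercapnia it gave 0 to 1. The 1, Lrg1, was without low stretch hypercapnia replicate 1, where 2101 of all genes were called. This became 3 with both that array and non-ventilated replicate 5 left out, where 2086 of all genes were called. The counts against non-ventilated lungs ran from 21 to 26 in low stretch normocapnia, 16 to 22 in low stretch hypercapnia (16 without its replicate 1), 26 to 26 in high stretch normocapnia and 24 to 26 in high stretch hypercapnia, and stayed at 0 for the other contrasts. With only the groups compared, 15 genes were called in low stretch hypercapnia. Same-numbered arrays of different groups had correlations of -0.34 to 0.38 over 55 pairs, 17 of them over 0.1. These correlations alone cannot exclude that the numbers pair the mice. With the replicate block the counts were 25, 20, 25 and 23 against non-ventilated lungs and 0 in the other contrasts. Camp, Mpo, Elane, Prtn3 and Cebpe had weak signals, and how far this limits what they can show was not tested.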
